A study of Homo sapiens with 21 samples.

Results

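The 42 autophagy and lysosome genes described here were chosen by name and matched by symbol, each to 1 Ensembl gene of the 62656 in the count table. All 42 were among the 24879 genes with enough counts to be tested. They comprise 3 transcription factors of the pathway (TFEB, TFE3 and MITF), 5 genes of autophagy initiation and nucleation (ULK1, ULK2, BECN1, ATG13 and ATG14), and 7 grouped under the conjugation step (ATG3, ATG5, ATG7, ATG12, ATG16L1, WIPI1 and WIPI2). A further 5 encode ATG8 proteins (MAP1LC3A, MAP1LC3B, GABARAP, GABARAPL1 and GABARAPL2) and 3 encode cargo receptors (SQSTM1, NBR1 and OPTN). On the lysosomal side there are 12 hydrolases and their cofactors (CTSA, CTSB, CTSD, CTSL, CTSZ, GLA, GLB1, GAA, HEXA, LIPA, PSAP and GRN) and 7 genes of the lysosomal membrane and of cholesterol transport (LAMP1, LAMP2, CD63, SCARB2, MCOLN1, NPC1 and NPC2).

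They were measured in SH-SY5Y cells, an established human neuroblastoma line driven towards a neuronal phenotype, after 11 days of differentiation. Compound-treated cells received 30 µM of 1 per- or polyfluoroalkyl substance for 24 h, with 1% methanol in the final treatment solutions, and control cells received none of the compounds. The methanol content of the controls is not given in the sources used here. The compounds were PFOA and PFDA (perfluoroalkyl carboxylic acids of shorter and longer chain), PFOS and PFDS (the sulfonic acids), 8:2 FTS (a fluorotelomer sulfonic acid) and 8:2 FTOH (a fluorotelomer alcohol). Each of the 7 groups had 3 libraries of ribosome-depleted total RNA. Whether these came from separate cultures is not stated, so a p-value here measures only how far libraries of a group spread, which may be technical. All groups come from 1 cell line, and the comparisons of single compounds with control share the same 3 control libraries.

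Total counts per library ran from 7680024 in 8:2 FTOH replicate 3 to 30429746 in PFOS replicate 1, with a median of 14633793, and the controls lay between 22179910 and 24905803. The share of counts from mitochondrial genes was 6.33% in control replicate 3, 6.11% in 8:2 FTOH replicate 3, 5.40% in PFDA replicate 2 and 5.24% in PFDS replicate 1, and 3.37% to 4.37% in the other 17 libraries. The first 2 of these libraries have no column in the authors' normalized table. The cells carried the markers of the line: 9 adrenergic and neuronal genes summed to 5306 to 6746 TPM per library, although TH alone had a median of only 0.868 TPM. Of 10 mesenchymal markers 4 were under 1 TPM in every library and the sum of all 10 was 24.3 to 35.3 TPM. Of 4 glial and immune markers 2 were under 1 TPM in every library, and the 4 together summed to 0.108 to 1.80 TPM.

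Autophagy encloses cytoplasm and organelles in a double membrane that fuses with the lysosome. The ULK kinase complex and the BECN1 and ATG14 lipid kinase complex start the membrane, the ATG7, ATG3 and ATG12, ATG5 and ATG16L1 machinery couples ATG8 proteins to its lipids, and receptors such as SQSTM1 tie cargo to those ATG8 proteins. Cathepsins, glycosidases and lipases then digest the contents inside a compartment bounded by heavily glycosylated proteins such as LAMP1. TFEB and its relatives TFE3 and MITF bind E-box sequences with the core CACGTG in promoters of lysosomal and autophagy genes, and are held in the cytoplasm by mTORC1 signalling when nutrients are plentiful. Neurons depend on the pathway because they do not dilute waste by dividing, and loss of NPC1, GRN, PSAP or several of the hydrolases causes inherited storage or neurodegenerative disease.

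This E-box core was searched for in promoters of the members. Printed here are 4 promoters that hold it, from members whose levels are described in detail below. They are RefSeq promoter windows on GRCh38.p14, each from 250 bases before to 50 bases after an annotated start, written 5′ to 3′ on the strand of the gene. Capitals mark CACGTG, which reads the same on both strands. LAMP1 lies at chr13:113296989-113297288 (plus strand), MCOLN1 at chr19:7522374-7522673 (plus strand), CTSD at chr11:1763878-1764177 (minus strand) and CD63, for 1 of its several starts, at chr12:55728960-55729259 (minus strand).
LAMP1: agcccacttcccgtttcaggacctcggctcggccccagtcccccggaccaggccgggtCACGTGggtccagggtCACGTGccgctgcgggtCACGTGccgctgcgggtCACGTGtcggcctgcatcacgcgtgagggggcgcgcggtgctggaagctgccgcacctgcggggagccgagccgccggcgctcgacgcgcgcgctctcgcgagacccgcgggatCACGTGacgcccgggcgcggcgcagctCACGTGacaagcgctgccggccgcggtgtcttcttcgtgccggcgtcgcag
MCOLN1: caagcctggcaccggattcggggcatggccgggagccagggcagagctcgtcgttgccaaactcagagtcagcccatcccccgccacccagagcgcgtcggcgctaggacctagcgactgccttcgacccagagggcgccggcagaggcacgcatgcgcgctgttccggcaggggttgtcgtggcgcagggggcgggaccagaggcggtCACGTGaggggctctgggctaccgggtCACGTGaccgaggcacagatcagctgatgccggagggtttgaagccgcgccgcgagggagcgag
CTSD: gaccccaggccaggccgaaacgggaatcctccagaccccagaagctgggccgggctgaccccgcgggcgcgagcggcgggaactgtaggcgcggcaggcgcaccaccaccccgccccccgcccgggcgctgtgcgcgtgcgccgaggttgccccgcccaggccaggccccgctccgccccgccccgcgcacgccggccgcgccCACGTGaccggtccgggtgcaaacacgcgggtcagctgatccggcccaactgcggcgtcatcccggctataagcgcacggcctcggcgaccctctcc
CD63: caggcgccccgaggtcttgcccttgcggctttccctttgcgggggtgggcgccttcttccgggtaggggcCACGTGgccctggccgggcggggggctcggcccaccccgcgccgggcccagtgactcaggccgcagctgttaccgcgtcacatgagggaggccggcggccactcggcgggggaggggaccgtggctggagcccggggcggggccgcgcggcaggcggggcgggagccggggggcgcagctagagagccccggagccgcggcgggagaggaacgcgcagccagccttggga
The LAMP1 window holds 6 copies of CACGTG, beginning at positions -192, -176, -159, -142, -28 and -1 from the start. The MCOLN1 window holds 2, at -41 and -14, the CTSD window 1, at -47, and the CD63 window 1, at -180. The other members with a copy were ATG14, ATG3, CTSA and GAA. Windows were found for 37 of the 42 members and none for CTSB, PSAP, HEXA, MAP1LC3A and LAMP2. Counting a gene once if any of its windows holds CACGTG, 8 of the 37 members did (21.6%), against 8.77% of the 27305 genes with a window. Counted by window it was 8 of 57 for the members, against 2548 of 35116 in all. The longer form TCACGTG, searched on both strands and overlapping the first motif, was in 7 of the 37 members (18.9%), against 4.49% of all genes. These matches describe the letters in the windows and are not measured binding sites.

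In control cells the members spanned a wide range of levels, compared here in TPM, a relative abundance that divides counts by exon length. PSAP, the precursor of the saposins that help sphingolipid hydrolases reach their substrates, was highest at 341 ± 17.2 TPM (SD, n = 3). CD63, a tetraspanin of lysosomes and secreted vesicles, followed at 147 ± 9.31 TPM, and the ATG8 genes MAP1LC3A, GABARAPL2 and MAP1LC3B at 74.5 ± 11.5, 67.6 ± 2.06 and 60.5 ± 2.73 TPM. At the low end were TFEB at 0.650 ± 0.119 TPM, MITF at 0.867 ± 0.340 TPM and CTSZ, a carboxypeptidase, at 1.14 ± 0.197 TPM. TFE3 stood at 16.5 ± 2.26 TPM, above its relatives TFEB and MITF. The median member had 17.9 TPM, against 7.95 TPM for all genes tested, and 35 of 42 members lay above that median. Of the 41 neighbouring pairs in the order of levels, 33 overlapped in their control libraries, so only parts of the order are clear of the spread: PSAP and CD63 lie clear of every gene below them, and the 5 lowest members (HEXA, GABARAP, CTSZ, MITF and TFEB) clear of those above. GABARAP, at 2.65 ± 0.901 TPM, shares 35.4% of its exon bases with a gene on the same strand, ENSG00000262526, and reads that overlap several genes were not counted, so its low level is uncertain. CTSZ shares 31.7% of its exon bases with NELFCD on the opposite strand. Counting ignored strand, so the low level of CTSZ is uncertain in the same way.

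**Figure D1:**
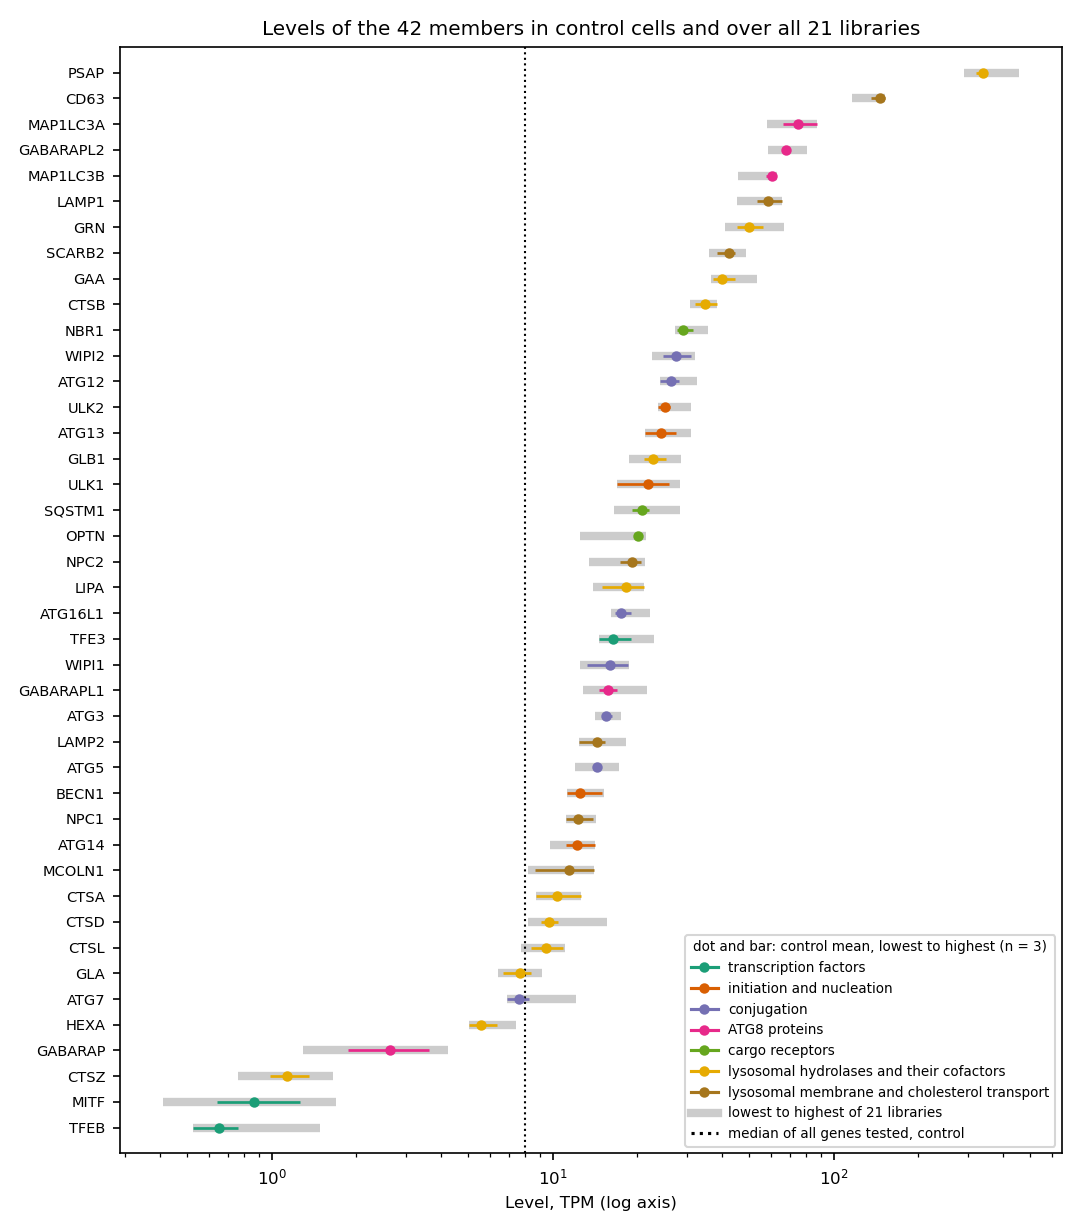
Level in TPM on a log axis of each of the 42 members, ordered from high to low. Dots and thin bars give the mean and the lowest to highest control library (n = 3), coloured by role, grey bars the lowest to highest of all 21 libraries, and the dotted line the control median of all genes tested, 7.95 TPM. Most members lie to the right of that line, and the grey bars of most members are narrow beside the differences between genes.

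The median member varied less between libraries of a group than the median gene tested. The median within-group SD of log2 CPM (library-scaled counts, with a pseudocount of 0.5) was 0.13 for the members and 0.23 for all genes tested, and it ran from 0.072 for BECN1 to 0.46 for MITF. The standard error of a fold change against control had a median of 0.10 for the members in the PFOA comparison, against 0.21 for all genes. It was also 0.10 for 135 further genes of the pathway, described below, so this is not particular to the members. TFEB, MITF, GABARAP and CTSZ, which have few counts, had the widest errors.

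No member passed the test against control for any of the 6 compounds. With edgeR's quasi-likelihood test and an adjusted p under 0.05, 0 of 42 members were called for PFOA (0.0322% of all genes), PFDA (0.00804%), PFOS (0.0241%), PFDS (0.0241%), 8:2 FTS (0.0844%) and 8:2 FTOH (0.0322%). With shares this small in all genes, 0 of 42 is near the background and is no result about the members. Adjusted over the 6 comparisons together, the smallest p of a member was 0.245, for ATG7 with 8:2 FTOH. DESeq2 also called 0 members, of the 17 with an adjusted p for PFOA (2.11% of all genes with one), 2 for PFDA (1.85%), 42 for PFOS (0.0971%), 41 for PFDS (0.193%), 42 for 8:2 FTS (0.239%) and 41 for 8:2 FTOH (0.354%).

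How large a difference these libraries leave possible is given by the intervals. The 95% interval of the fold change stayed within 1.5-fold of control in either direction for 39 of 42 members with PFOA, 38 with PFOS, 38 with PFDA, 37 with PFDS, 38 with 8:2 FTS and 37 with 8:2 FTOH. Of all genes tested, between 48.8% and 50.1% had intervals that narrow. Of the 135 further genes of the pathway, between 91.1% and 94.1% did. Within 2-fold lay the intervals of 40 to 42 members. The exceptions to 2-fold were among the members with few counts, TFEB and GABARAP, so for the other 40 a change of 2-fold in either direction lies outside the 95% interval with every compound.

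**Figure D2:**
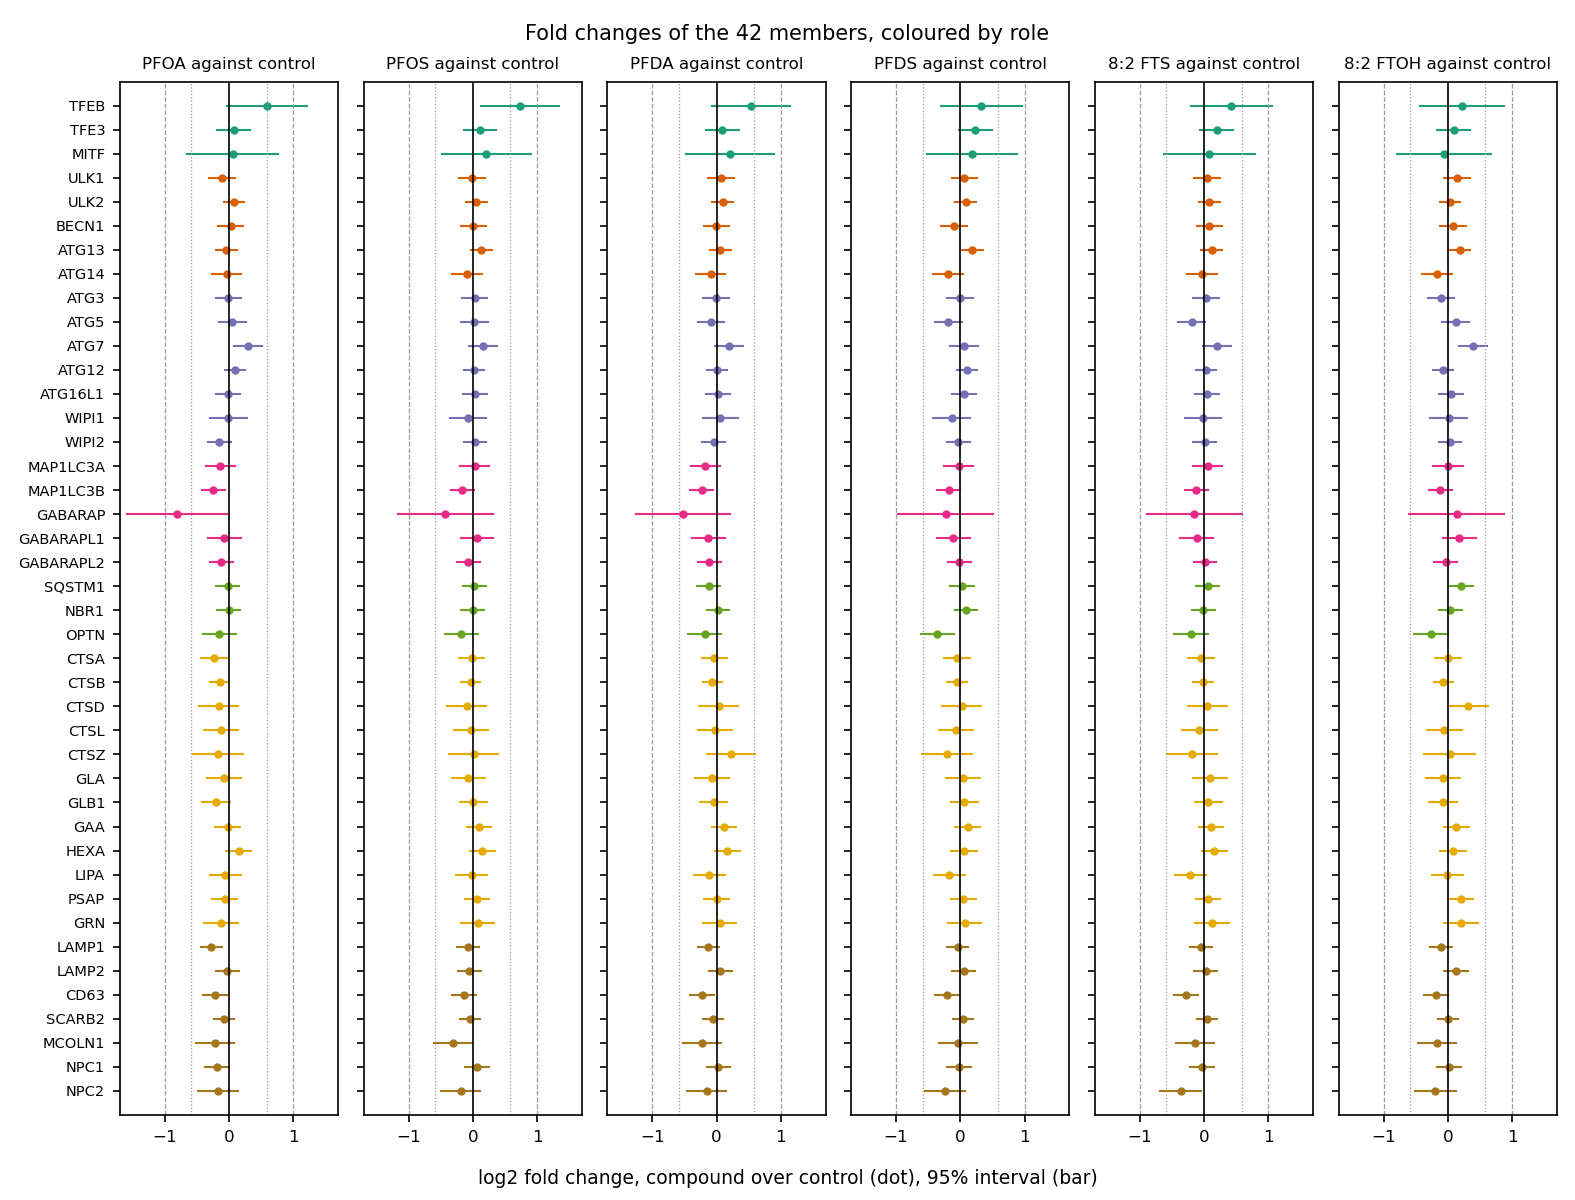
Log2 fold change of each of the 42 members (rows, coloured by role) for each compound over control (panels), with its 95% interval. Dotted lines mark 1.5-fold and dashed lines 2-fold in either direction. Nearly all intervals lie inside the dotted lines, and most that do not belong to TFEB, MITF and GABARAP.

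At an unadjusted p under 0.05, PFOA had 7 members, 1 with a positive and 6 with a negative log2 fold change, where 10.1% of all genes passed. The positive one was ATG7, and the negative ones were LAMP1, CD63, NPC1, CTSA, MAP1LC3B and GABARAP. The numbers were 2 for PFDA (background 8.43%), 2 for PFOS (6.83%), 2 for 8:2 FTS (7.77%), 3 for PFDS (5.58%) and 6 for 8:2 FTOH (7.83%). In 8:2 FTOH cells 5 of the 6 were positive, ATG7, SQSTM1, ATG13, CTSD and PSAP, and CD63 was negative. Over the 6 compounds these are 22 values, and leaving out a single library reduced 10 of them by more than 1.5 times, though none changed sign. The members' median log2 fold change was -0.072 for PFOA, where 9 of 42 were positive (21.4%), against 0.0092 and 51.8% positive for all genes tested. For the other compounds the median lay between -0.014 (PFDA) and 0.027 (8:2 FTS), and for all genes tested between 0.0022 and 0.0085. Scaled by library size alone, the PFOA median was -0.0040 with 20 of 42 positive, and the medians for PFDA and PFDS changed sign. That scaling also raised the median of all genes tested, to 0.078 for PFOA, 0.073 for PFDA and 0.027 for PFDS. Values under library-size scaling, here and below, are to be read beside this shift of all genes. In PFOA cells the 19 lysosomal members had a median of -0.15 with 1 positive, and the 23 autophagy members -0.016 with 8 positive. With library-size scaling 5 of the 19 and 15 of the 23 were positive, and the autophagy median was 0.054. In whole-culture RNA a smaller share of cells with a transcript and less of it per cell cannot be told apart.

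**Figure D3:**
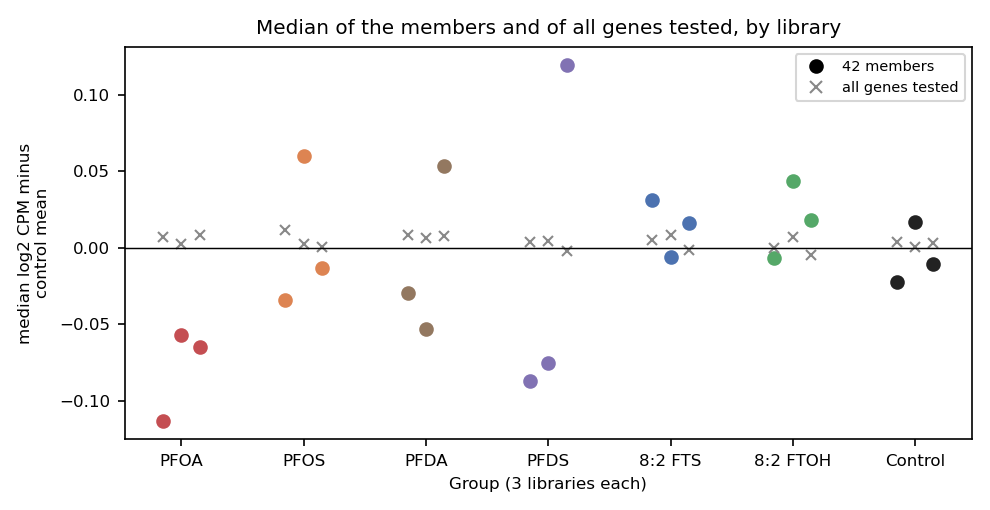
Median over the 42 members (dots) and over all genes tested (crosses) of log2 CPM minus the control mean, for each library. The PFOA libraries lie at -0.11, -0.057 and -0.065, while the PFDS libraries are spread from -0.087 to 0.12, a wider range than in any other group.

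By library, 10, 17 and 11 of the 42 members lay above the control mean in the 3 PFOA libraries, and 19, 26 and 20 in the 3 control libraries. That mean is taken over the same 3 control libraries, so their counts are no independent reference for the PFOA counts. Of all genes tested, between 49.4% (8:2 FTOH replicate 3) and 52.1% (PFOS replicate 1) lay above the control mean in each library. The PFDS libraries differed most among themselves, with 12, 16 and 30 members above it. Their mitochondrial shares were 5.24%, 3.93% and 4.12% in replicates 1, 2 and 3, and their total counts 11839106, 13313204 and 27134957. Control replicate 3 (6.33%) and 8:2 FTOH replicate 3 (6.11%), with the highest shares, had 20 and 23 members above it. The part of mitochondrial share or depth in the members' levels was not tested.

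**Figure D4:**
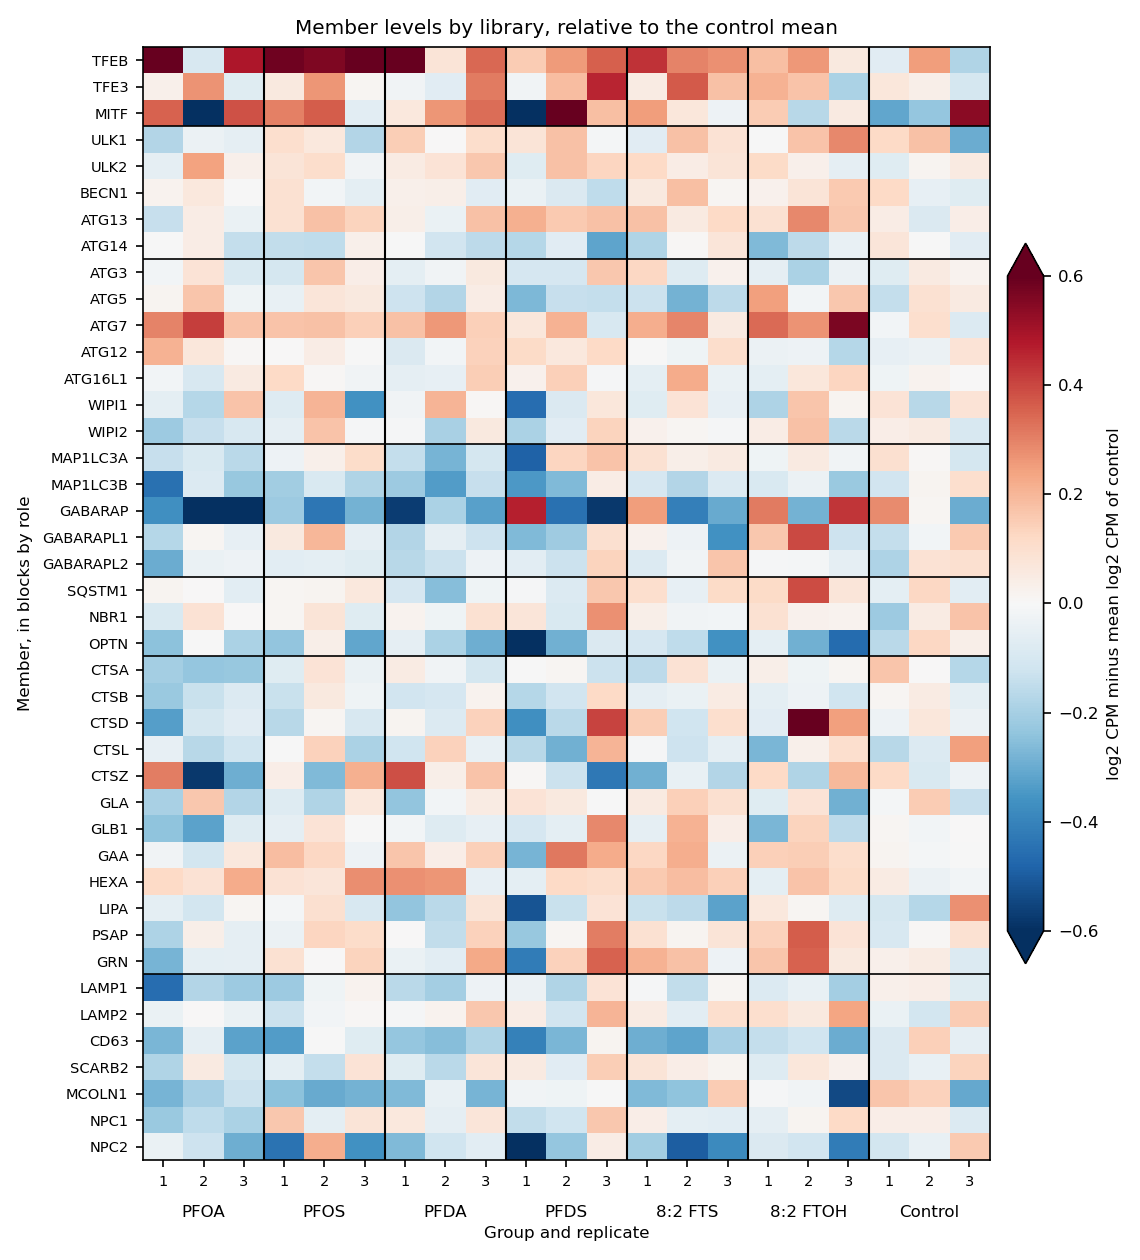
Log2 CPM of each member minus its mean over the 3 control libraries, by library, with members in blocks by role (rows) and groups in blocks of 3 replicates (columns). Red is above and blue below the control mean, and the colour scale ends at 0.6 in either direction. ATG7 is red in most compound libraries, MAP1LC3B and CD63 blue in most, and most hydrolases are blue in PFDS replicate 1 and red in PFDS replicate 3.

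The 3 transcription factors act at the top of the pathway, and TFEB, its best known regulator, was the member with the largest positive fold change for PFOA, PFOS, PFDA, PFDS and 8:2 FTS. TFEB stood at 3.17, 1.34 and 2.26 CPM in PFOA cells, 2.82, 1.58 and 2.00 CPM in PFDA cells and 2.45, 2.40 and 2.61 CPM in PFOS cells. The PFDS libraries had 1.69, 1.85 and 2.02 CPM of TFEB, the 8:2 FTS libraries 2.16, 1.92 and 1.88 CPM and the 8:2 FTOH libraries 1.73, 1.86 and 1.55 CPM, against 1.38, 1.84 and 1.24 CPM in control. All PFOS and all 8:2 FTS libraries lay above the highest control library, and the other groups overlapped control. The fold change for PFOS was 0.74 ± 0.30 (SE), adjusted p = 0.643, with a 95% interval of 0.13 to 1.35 on the log2 scale. With PFOA, PFDA and PFDS it was 0.59, 0.54 and 0.33, and with 8:2 FTS and 8:2 FTOH 0.42 and 0.22, each with a standard error of 0.30 to 0.32. Without PFOA replicate 1 the PFOA value was 0.30, without PFDA replicate 1 the PFDA value was 0.29, and with single libraries left out the PFOS value was 0.62 to 0.93. TFEB had a mean of 36.4 counts per library, and none of these values passed the test. TFE3 had log2 fold changes between 0.076 (PFOA) and 0.23 (PFDS), and MITF between -0.062 (8:2 FTOH) and 0.22 (PFDA).

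The initiation and nucleation genes set the rate at which autophagosomes form. Their median log2 fold changes were -0.039 and 0.062 for the carboxylic acids PFOA and PFDA, 0.0097 and 0.065 for the sulfonic acids PFOS and PFDS, and 0.082 and 0.083 for the fluorotelomers 8:2 FTS and 8:2 FTOH. ATG13, the subunit that binds ULK1 to its partners, was chosen after its values were seen: its log2 fold change was 0.19 ± 0.082 (SE), adjusted p = 0.563 for 8:2 FTOH and 0.18 ± 0.081 (SE), adjusted p = 0.830 for PFDS. The single values of all 5 genes over the 6 compounds lay between -0.19 (ATG14 with PFDS) and 0.19 (ATG13 with 8:2 FTOH). For PFOA the sign of the group's median changed when libraries were scaled by size alone, to 0.028. The median of all genes tested was then 0.078.

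Of the conjugation genes, ATG3, ATG5, ATG7, ATG12 and ATG16L1 act in attaching ATG8 proteins to lipid, and WIPI1 and WIPI2 are grouped with them here. Medians over these conjugation genes lay between -0.0079 (PFOA, 0.061 with library-size scaling) and 0.033 (8:2 FTOH). Among them ATG7, the E1-like enzyme that activates ATG8 proteins and ATG12, had the smallest p of all members against any compound. ATG7 stood at 28.02, 30.4 and 25.6 CPM in PFOA cells, 25.7, 27.2 and 25.1 CPM in PFDA cells and 25.6, 25.7 and 25.1 CPM in PFOS cells. Its level was 23.8, 26.3 and 21.2 CPM in PFDS cells, 26.4, 27.9 and 23.6 CPM in 8:2 FTS cells and 28.8, 27.5 and 33.7 CPM in 8:2 FTOH cells, against 22.4, 24.3 and 21.4 CPM in control cells. All 3 libraries of 8:2 FTOH, PFOA, PFOS and PFDA lay above the highest control library, while PFDS and 8:2 FTS overlapped control. For 8:2 FTOH its log2 fold change was 0.39 ± 0.11 (SE), adjusted p = 0.223, and DESeq2 gave an adjusted p of 0.0762. Across 15 fits for this comparison, the main one included, the log2 fold change stayed between 0.27 and 0.46 and the adjusted p between 0.0762 and 0.655. For PFOA the log2 fold change was 0.30 ± 0.11 (SE), adjusted p = 0.320, and for PFOS, PFDA, PFDS and 8:2 FTS it was 0.16, 0.19, 0.058 and 0.20. ATG7 shares 18.1% of its exon bases with VGLL4 on the opposite strand, and counting ignored strand, so reads of the 2 genes cannot be told apart there. The other 6 conjugation genes had log2 fold changes between -0.19 (ATG5 with 8:2 FTS) and 0.13 (ATG5 with 8:2 FTOH). No difference among the 7 groups passed either: by the test of any difference 0 of 42 members were called by edgeR (0.0322% of all genes) and 0 by DESeq2 (0.69%). At an unadjusted p under 0.05 there were 5 (background 5.91%), namely ATG7, ATG5, SQSTM1, LAMP1 and ATG13, and the smallest adjusted p was 0.661, for ATG7.

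The ATG8 proteins are the small ubiquitin-like proteins that coat the growing membrane. Their median log2 fold changes were -0.14 and -0.18 for the carboxylic acids PFOA and PFDA, -0.071 and -0.11 for the sulfonic acids PFOS and PFDS, and -0.11 and 0.0045 for the fluorotelomers 8:2 FTS and 8:2 FTOH, with all 5 genes negative for PFOA, PFDA and PFDS. With library-size scaling 0, 0 and 1 of the 5 were positive for those compounds, and no sign of the medians changed. Those comparisons use the same control libraries and so are not separate observations. For PFDS the shared sign did not hold library by library. In PFDS replicate 3, MAP1LC3A, MAP1LC3B, GABARAPL1 and GABARAPL2 lay 0.17, 0.043, 0.097 and 0.13 above the control mean in log2 CPM, and GABARAP at -0.58. MAP1LC3A was also positive in PFDS replicate 2 (0.13) and GABARAP in PFDS replicate 1 (0.47). MAP1LC3B encodes LC3B, the form most used to mark autophagosomes. MAP1LC3B stood at 75.6, 97.5 and 88.3 CPM in PFOA cells, 88.7, 81.8 and 93.9 CPM in PFDA cells and 89.2, 96.9 and 91.1 CPM in PFOS cells. PFDS cells had 81.3, 85.9 and 106 CPM, 8:2 FTS cells 96.2, 91.3 and 97.5 CPM and 8:2 FTOH cells 96.8, 101 and 88.4 CPM, against 95.2, 105 and 111 CPM in the controls. The PFDA libraries all lay below the lowest control library, and every other group overlapped control. The log2 fold change was -0.25 ± 0.089 (SE), adjusted p = 0.320 for PFOA and -0.23 ± 0.088 (SE), adjusted p = 0.471 for PFDA. Without PFOA replicate 1 the PFOA value was -0.16. With PFOS and PFDS it was -0.16 and -0.18, and with 8:2 FTS and 8:2 FTOH -0.12 and -0.11. GABARAP, chosen after its values were seen, had the lowest log2 fold change of all members, -0.81 ± 0.39 (SE), adjusted p = 0.470 for PFOA. It rests on a mean of 25.7 counts per library and on the shared exon described above, and its interval, -1.59 to -0.036, is wide. MAP1LC3A, GABARAPL1 and GABARAPL2 lay between -0.18 and 0.18 with every compound.

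The cargo receptors bind ubiquitylated cargo and ATG8 proteins at once. SQSTM1, also known as p62, is the receptor whose protein builds up when autophagy is blocked. SQSTM1 stood at 53.6, 53.1 and 50.7 CPM in PFOA cells, 49.5, 44.4 and 52.1 CPM in PFDA cells and 53.4, 53.7 and 55.3 CPM in PFOS cells. The PFDS libraries had 52.7, 49.98 and 59.3 CPM of SQSTM1, the 8:2 FTS libraries 56.8, 51.2 and 57.5 CPM and the 8:2 FTOH libraries 57.5, 69.6 and 55.7 CPM, against 50.9, 57.7 and 50.7 CPM in control. The highest 8:2 FTOH library, replicate 2, stood above all others, and the 8:2 FTOH libraries overlapped control. With 8:2 FTOH the log2 fold change was 0.21 ± 0.090 (SE), adjusted p = 0.557, and for PFOA, PFOS, PFDA, PFDS and 8:2 FTS it was -0.020, 0.027, -0.12, 0.028 and 0.055. Without 8:2 FTOH replicate 2 the 8:2 FTOH value was 0.098. SQSTM1 shares 1582 of its 7535 exon bases with MRNIP on the opposite strand, which limits these values in the same way.

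OPTN, or optineurin, serves as a receptor for damaged mitochondria and invading bacteria. OPTN stood at 29.5, 35.01 and 30.6 CPM in PFOA cells, 33.8, 30.7 and 28.5 CPM in PFDA cells and 29.7, 35.9 and 28.1 CPM in PFOS cells. Its level was 19.8, 28.6 and 32.9 CPM in PFDS cells, 32.6, 31.4 and 27.2 CPM in 8:2 FTS cells and 33.7, 28.6 and 25.3 CPM in 8:2 FTOH cells, against 31.3, 38.3 and 35.9 CPM in control cells. The PFDS values spread from below every other library to within the control range, with replicate 1 the lowest of all 21. Its log2 fold change was -0.36 ± 0.13 (SE), adjusted p = 0.629 for PFDS and -0.26 ± 0.13 (SE) for 8:2 FTOH. Without PFDS replicate 3 the PFDS value was -0.53 with an adjusted p of 0.0595, and without PFDS replicate 1 it was -0.19 with an adjusted p of 0.872. NBR1, the third receptor, had log2 fold changes from -0.0087 (8:2 FTS) to 0.089 (PFDS).

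The 12 hydrolases and cofactors carry out the digestion itself. Their median log2 fold changes were -0.13 and -0.010 for the carboxylic acids PFOA and PFDA, -0.0043 and 0.030 for the sulfonic acids PFOS and PFDS, and 0.056 and 0.013 for the fluorotelomers 8:2 FTS and 8:2 FTOH, and HEXA was the 1 of 12 that was positive for PFOA. Under library-size scaling 4 of 12 were positive for PFOA. The medians for PFOS and PFDA turned to 0.040 and 0.056, against 0.051 and 0.073 for all genes tested. CTSD, the main aspartic protease of the lysosome, is the best studied of these hydrolases. CTSD stood at 14.7, 17.3 and 17.8 CPM in PFOA cells, 18.9, 17.6 and 20.6 CPM in PFDA cells and 16.6, 18.8 and 17.5 CPM in PFOS cells. PFDS cells had 14.4, 16.6 and 24.9 CPM, 8:2 FTS cells 20.7, 17.1 and 20.1 CPM and 8:2 FTOH cells 17.8, 29.01 and 22.2 CPM, against 18.3, 19.6 and 18.2 CPM in the controls. The 3 PFOA libraries lay below the lowest control library, and every other group overlapped control. The 8:2 FTOH libraries ran from below to well above the control libraries, and PFDS replicates 1 and 3 lay on either side of all 3 controls. CTSD had a log2 fold change with 8:2 FTOH of 0.32 ± 0.15 (SE), adjusted p = 0.605, and it lay between -0.16 (PFOA) and 0.051 (8:2 FTS) for the other 5 compounds. Without 8:2 FTOH replicate 2 the 8:2 FTOH value was 0.092, and without 8:2 FTOH replicate 1 it was 0.48. CTSD shares 23.4% of its exon bases with PRADX on the opposite strand and 22.9% with ENSG00000250644 on its own strand. PSAP, chosen after its values were seen, had 396, 463 and 381 CPM in 8:2 FTOH cells, against 336, 361 and 383 CPM in control, and its log2 fold change was 0.20 ± 0.095 (SE), adjusted p = 0.617, or 0.12 without 8:2 FTOH replicate 2. CTSA, the protective protein that stabilizes GLB1 and also chosen after its values were seen, had 25.9, 25.4 and 25.4 CPM in PFOA cells, against 33.5, 29.95 and 26.5 CPM in control. All PFOA libraries lay below the control libraries, and the log2 fold change was -0.23 ± 0.10 (SE), adjusted p = 0.417, or -0.14 without control replicate 1. CTSA shares 11.1% of its exon bases with NEURL2 on the opposite strand. The log2 fold changes of all 12 over the 6 compounds lay between -0.23 (CTSA with PFOA) and 0.32 (CTSD with 8:2 FTOH).

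The membrane genes include the structural glycoproteins, the calcium channel MCOLN1 and the pair NPC1 and NPC2, which hand cholesterol out of the lysosome. Their median log2 fold changes were -0.19 and -0.13 for the carboxylic acids PFOA and PFDA, -0.074 and -0.035 for the sulfonic acids PFOS and PFDS, and -0.047 and -0.11 for the fluorotelomers 8:2 FTS and 8:2 FTOH, with 0 of 7 positive for PFOA. Under library-size scaling 1 of 7 was positive for PFOA, and the 8:2 FTS median was 0.0032, against 0.060 for all genes tested. LAMP1, among the most abundant lysosomal membrane proteins and the member with 6 E-box cores in the printed window, had the smallest p for PFOA. LAMP1 stood at 82.6, 101 and 97.7 CPM in PFOA cells, 102, 98.6 and 111 CPM in PFDA cells and 97.4, 112 and 115 CPM in PFOS cells. The PFDS libraries had 111, 100.2 and 120.2 CPM of LAMP1, the 8:2 FTS libraries 113, 102 and 114 CPM and the 8:2 FTOH libraries 107, 110.1 and 98.6 CPM, against 116, 117 and 108 CPM in control. The 3 PFOA libraries lay below the lowest control library. The log2 fold change for PFOA was -0.28 ± 0.082 (SE), adjusted p = 0.196, and the adjusted p was 0.0639 with DESeq2. Over 15 fits, the main one included, the fold change stayed negative, between -0.33 and -0.20, with an adjusted p of 0.0639 to 0.873. PFDA gave -0.13 on the same log2 scale, PFOS -0.074, PFDS -0.039, 8:2 FTS -0.047 and 8:2 FTOH -0.11.

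CD63 was the member with the smallest p for 8:2 FTS and for the 6 compounds together. CD63 stood at 99.4, 116 and 96.2 CPM in PFOA cells, 103, 101 and 106 CPM in PFDA cells and 95.3, 120.3 and 115 CPM in PFOS cells. Its level was 90.7, 99.6 and 122 CPM in PFDS cells, 98.2, 96.7 and 105 CPM in 8:2 FTS cells and 109, 111 and 97.9 CPM in 8:2 FTOH cells, against 113, 133 and 116 CPM in control cells. The PFDA, 8:2 FTS and 8:2 FTOH libraries lay below the lowest control library, while PFOA, PFOS and PFDS overlapped control. The log2 fold change was -0.28 ± 0.091 (SE), adjusted p = 0.365 for 8:2 FTS, -0.23 ± 0.091 (SE), adjusted p = 0.496 for PFDA and -0.21 ± 0.091 (SE), adjusted p = 0.822 for PFDS. For PFOA, PFOS and 8:2 FTOH it was -0.22, -0.14 and -0.19. Without control replicate 2 the values for PFOA, PFDA and 8:2 FTOH were -0.14, -0.15 and -0.11, and the PFDS value was -0.12 without PFDS replicate 1 and -0.34 without PFDS replicate 3. All of these values are set against the same 3 control libraries, of which control replicate 2 was the highest of all 21.

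MCOLN1, the TRPML1 calcium channel, had the smallest p with PFOS after TFEB, and NPC2, the soluble cholesterol carrier of the lysosomal lumen, the smallest with 8:2 FTS after CD63. MCOLN1 stood at 12.3, 13.1 and 13.8 CPM in PFOA cells, 12.5, 14.6 and 12.3 CPM in PFDA cells and 12.6, 12.2 and 12.3 CPM in PFOS cells. PFDS cells had 14.9, 14.8 and 15.1 CPM, 8:2 FTS cells 12.5, 12.7 and 16.8 CPM and 8:2 FTOH cells 14.99, 14.9 and 10.2 CPM, against 17.01, 16.7 and 12.1 CPM in the controls. All PFOS libraries lay between control replicate 3 and the other two controls, so the groups overlapped. With PFOS the log2 fold change of MCOLN1 was -0.30 ± 0.15 (SE), adjusted p = 0.728. Control replicate 3 and 8:2 FTOH replicate 3, the lowest MCOLN1 values of their groups, are the 2 libraries with mitochondrial shares above 6%. PFDA replicate 2 (5.40%) had the highest MCOLN1 value of its group. PFDS replicate 1 (5.24%) lay between replicates 2 and 3 of its group. The part of mitochondrial share in the result was not tested.

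NPC2 stood at 16.3, 15.3 and 13.6 CPM in PFOA cells, 13.9, 15.4 and 16.01 CPM in PFDA cells and 12.2, 19.6 and 12.9 CPM in PFOS cells. The PFDS libraries had 10.6, 14.2 and 17.3 CPM of NPC2, the 8:2 FTS libraries 14.4, 11.8 and 12.7 CPM and the 8:2 FTOH libraries 15.7, 15.4 and 12.4 CPM, against 15.5, 16.2 and 18.8 CPM in control. The 8:2 FTS libraries lay below all control libraries, and the other groups overlapped them. The log2 fold change for 8:2 FTS was -0.36 ± 0.16 (SE), adjusted p = 0.556. NPC1, the membrane protein that exports cholesterol from lysosomes, was chosen after its values were seen. It had 34.6, 36.4 and 35.4 CPM in PFOA cells, against 41.6, 41.5 and 38.2 CPM in control cells, and no PFOA library reached the control range. Its log2 fold change for PFOA was -0.19 ± 0.092 (SE), adjusted p = 0.481. It shares 6.4% of its exon bases with RMC1 on the opposite strand.

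Taking all 18 compound libraries against the 3 controls narrows the error. By edgeR 0 of 42 members were called (0.35% of all genes) and by DESeq2 0 of 39 with a value (1.29%), and 4 had an unadjusted p under 0.05 (background 9.98%). These 4 were CD63 at -0.21 ± 0.068 (SE), adjusted p = 0.208, MAP1LC3B at -0.18 ± 0.066 (SE), adjusted p = 0.311, ATG7 at 0.22 ± 0.082 (SE), adjusted p = 0.319 and OPTN at -0.22 ± 0.095 (SE), adjusted p = 0.403. Leaving out PFDS replicate 3 brought CD63 to -0.23 with an adjusted p of 0.0472, the only member called under any alternative. That fit called 217 of 25663 genes in all, against 87 of 24879 with every library. Leaving out control replicate 2 brought CD63 to -0.13 with an adjusted p of 0.960. The median over the members was -0.022, against 0.0032 for all genes. With library-size scaling these medians were 0.026 and 0.052. The 23 autophagy members had a median of 0.016 with 12 positive, or 0.064 with 18 positive under library-size scaling. The 19 lysosomal members had a median of -0.032 with 6 positive, or 0.017 with 10 positive under that scaling. The interval stayed within 1.5-fold for 39 members and within 2-fold for all 42.

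**Figure D5:**
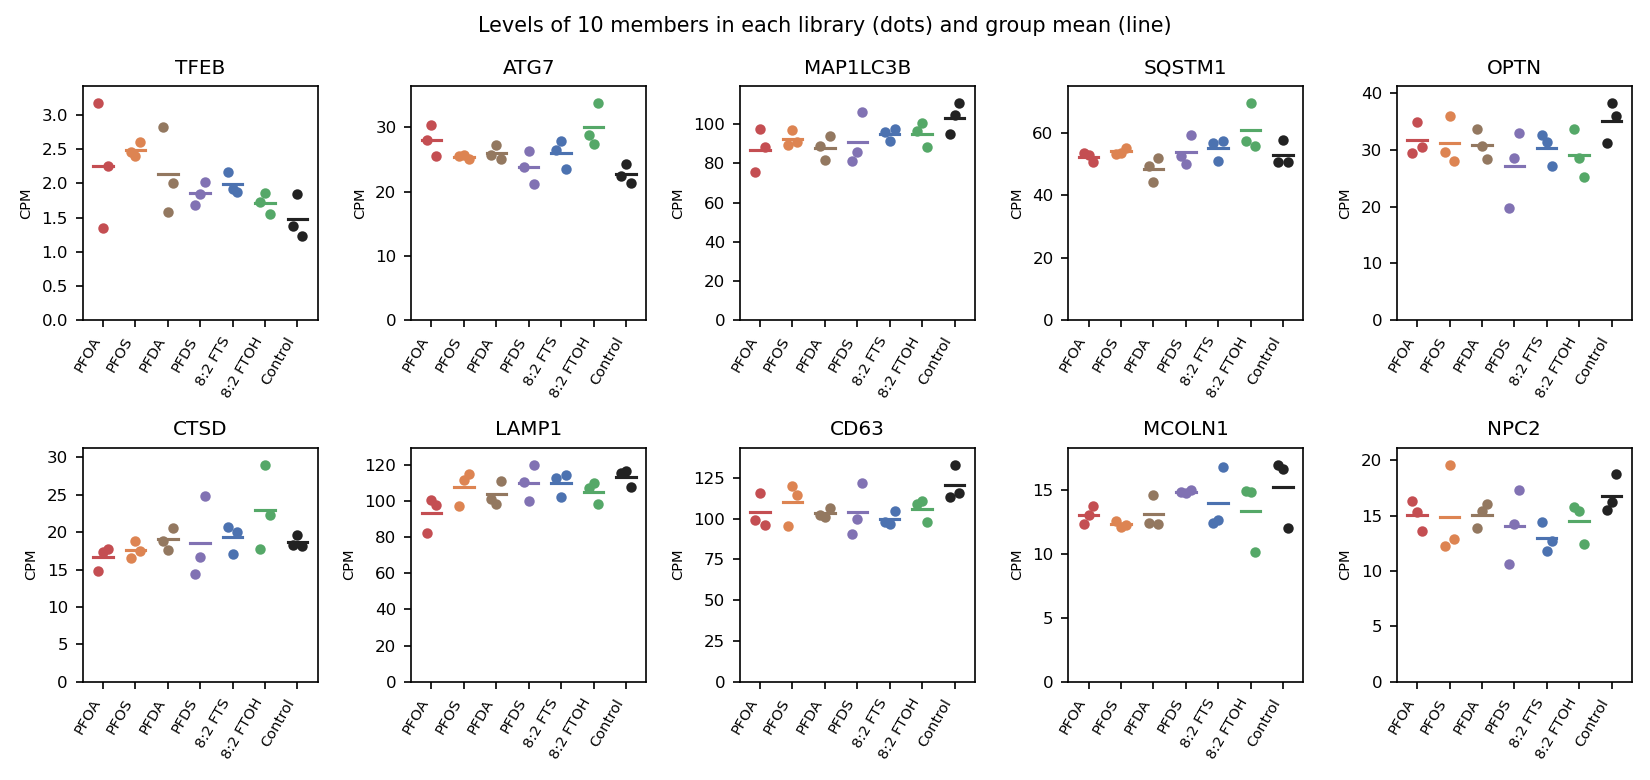
CPM of 10 members in every library (dots) with the group mean (line), compound groups to the left of control, each axis starting at 0. ATG7 in 8:2 FTOH, PFOA, PFOS and PFDA cells and TFEB in PFOS and 8:2 FTS cells lie above control with no overlap. LAMP1 and CTSD in PFOA, MAP1LC3B in PFDA and NPC2 in 8:2 FTS cells lie below control with no overlap. CD63 does so in PFDA, 8:2 FTS and 8:2 FTOH cells. The other compound groups in these panels overlap control.

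The design also allows compounds of related structure to be compared at the same dose and time. For the 7 pairs compared, 0 of 42 members passed by edgeR or by DESeq2 in each, and with p-values adjusted over the 7 pairs together no member had a value under 1.0. PFDA and PFOA are both carboxylic acids and differ in chain length: 0 members were called (0% of all genes by edgeR and 0% by DESeq2), and 1 had an unadjusted p under 0.05 (background 2.93%). For PFDS against PFOS, the same contrast among sulfonic acids, the counts were 0 (0.00402% and 0.00804%) and 0 (background 4.37%). PFOS and PFOA differ in the acid group: 0 were called (both backgrounds 0%) and 5 had an unadjusted p under 0.05 (background 4.9%), all positive. For PFDS against PFDA the counts were 0 (both 0%) and 1 (background 5.59%). The median log2 difference over the members was 0.022 for PFDA against PFOA, -0.017 for PFDS against PFOS, 0.064 for PFOS against PFOA and 0.0087 for PFDS against PFDA.

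The members behind the PFOS against PFOA count were NPC1, LAMP1, ATG13, WIPI2 and CTSA, of which all but LAMP1 were chosen after their values were seen. NPC1 had 45.3, 38.8 and 42.6 CPM in PFOS cells, against 34.6, 36.4 and 35.4 CPM in PFOA cells. The 3 PFOS libraries lay above the 3 PFOA libraries, and the log2 difference was 0.26 with an interval of 0.070 to 0.44 and an adjusted p of 0.958. PFDA cells, at 42.2, 38.95 and 42.5 CPM, also lay above the PFOA cells, with a log2 difference of 0.22, an interval of 0.034 to 0.41 and an adjusted p of 1.0. Both differences use the same PFOA libraries. LAMP1 differed between PFOS and PFOA by 0.20 on the log2 scale, with an interval of 0.036 to 0.37. For PFDS against PFDA the 1 member was CTSZ, at -0.43 with an interval of -0.82 to -0.036, a gene that shares 31.7% of its exon bases with NELFCD.

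The fluorotelomers were compared with each other and with the sulfonic acids. 8:2 FTS and 8:2 FTOH share a fluorinated tail and differ in having a sulfonic acid or an alcohol group: 0 members were called (0% of all genes by edgeR and 0.0121% by DESeq2) and 2 had an unadjusted p under 0.05 (background 3.26%). Set against PFOS, 8:2 FTS had 0 called (both 0%) and 1 under 0.05 (background 2.86%), and against PFDS 0 (0% and 0.00402%) and 0 (background 4.1%). ATG5, the target to which ATG12 is joined, was the member in the first 2 of these counts and was chosen after its values were seen. It had 25.2, 22.5 and 24.7 CPM in 8:2 FTS cells, against 32.8, 27.2 and 30.9 CPM in 8:2 FTOH cells, with no overlap. The log2 difference was -0.32, with an interval of -0.53 to -0.10 and an adjusted p of 1.00, and against PFOS it was -0.22. GABARAPL1 was the other member in the first count, at -0.30 with an interval of -0.56 to -0.032. Over the 7 pairs the 95% interval of the difference lay within 1.5-fold for 38 or 39 of 42 members and within 2-fold for 41 or 42. A p above the threshold does not show that 2 compounds act alike, and these intervals give the sizes that remain possible.

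The wider pathway was read from 137 further genes, of which 135 were tested: 40 of autophagy, 37 hydrolases, 41 of the membrane, sorting and mTORC1 signalling, and 17 of the V-ATPase that acidifies the lysosome. VAMP8 and ATP6V0C had too few counts. By edgeR 0 of 135 passed in any of the 15 comparisons. At an unadjusted p under 0.05 there were 12 with PFOA (8.89%, against 10.1% of all genes), 11 with PFDA (8.15%, against 8.43%), 9 with PFOS (6.67%, against 6.83%), 7 with PFDS (5.19%, against 5.58%), 13 with 8:2 FTS (9.63%, against 7.77%) and 12 with 8:2 FTOH (8.89%, against 7.83%). These shares are near the background. The median log2 fold changes lay between -0.0100 (PFOA) and 0.033 (8:2 FTOH). With library-size scaling those for PFOA and PFDA turned from negative to 0.058 and 0.059, against 0.078 and 0.073 for all genes tested. Over the 7 pairs of compounds, 2 to 11 of the 135 had an unadjusted p under 0.05. The share of all genes ran from 2.86% (8:2 FTS against PFOS) to 5.59% (PFDS against PFDA). No result about the list is drawn from this range. DESeq2 called 1 of them, IDS, of the 57 with an adjusted p for PFOA (background 2.11%) and of the 132 with one in the test of any difference among the groups (background 0.69%). With these backgrounds 1 call is no result about the list, and the values of IDS are given as a description. IDS, the lysosomal iduronate sulfatase, had 35.8, 36.1 and 34.3 CPM in PFOA cells, against 46.95, 44.4 and 42.8 CPM in control, and no PFOA library reached the control range. Its log2 fold change was -0.34 ± 0.098 (SE), adjusted p = 0.187 by edgeR, with an adjusted p of 0.0485 by DESeq2. The V-ATPase genes had median log2 fold changes between -0.035 (PFDA) and 0.0043 (8:2 FTOH), and each negative one was positive with library-size scaling. Under that scaling the median of all genes tested lay between 0.027 (PFDS) and 0.078 (PFOA).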

How the data were processed

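The deposited raw table holds counts per gene for 21 libraries. Per the submitters' processing notes, the authors used FastQC, MultiQC, HISAT2, SAMtools, featureCounts, DESeq2 and hg38. featureCounts 2.0.1 was run, per the file headers, without strand or read pair options, and the kit was stranded, so genes that overlap on either strand are uncertain. The authors' deposited normalized table (signal: raw counts divided by 1 factor per library) lacks 2 libraries and served only as a check: multiplied back, 100.0% of its values were whole within 0.01.

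The raw counts were filtered with filterByExpr, scaled with TMM and fitted over all 21 libraries with edgeR 4.0.16's quasi-likelihood test (R 4.3.3), and p-values were adjusted by Benjamini-Hochberg over all 24879 genes tested within each of 15 comparisons, at 0.05. The biological coefficient of variation was 0.1124. CPM used TMM-scaled library sizes, and TPM was computed from counts and exon length. Intervals are 95% and cover the spread between libraries. Values were scripted with Python 3.11.15, and the fit was tested on simulated data.

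The members and gene lists were chosen with earlier results of these data known. Members described library by library are the 2 with the smallest p for each compound against control, with TFEB, SQSTM1, MAP1LC3B, LAMP1 and CTSD. Alternatives were DESeq2 size factors, library-size scaling, no filter, a stricter filter (1 CPM and 10 counts), DESeq2 1.42.0, only the groups compared, a replicate block, adjustment over the family of comparisons, and leaving out each of the 21 libraries in turn. Leaving out both libraries absent from the normalized table was chosen after seeing the data. DESeq2 gives no adjusted p to genes below its own filter.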

Additional observations from a re-analysis of the deposited data

How the results depend on the processing

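The number of members called stayed at 0 in all 15 comparisons under every alternative except 1: for the 6 compounds together it was 0 to 1 when single libraries were left out, and the 1 was CD63 without PFDS replicate 3. In that fit 217 of 25663 genes were called in all. The median log2 fold change over the members moved by more than its spread between replicates in 4 comparisons. For PFOA it was -0.0040 with library-size scaling, -0.036 without control replicate 3 and 8:2 FTOH replicate 3, and -0.11 to -0.036 when single libraries were left out. For PFDA it was 0.052 with library-size scaling. For 8:2 FTS it was 0.080 with that scaling and 0.0052 to 0.030 with single libraries left out, and for 8:2 FTOH 0.067 and 0.0088 to 0.055. Library-size scaling also turned the medians for PFDS (0.015) and the 6 together (0.026) positive. It raised the median of all genes tested as well, to between 0.027 (PFDS) and 0.078 (PFOA). For the 6 together, SQSTM1 turned negative without control replicate 3 (-0.0011 to 0.096 over single libraries left out) and CTSD without PFDS replicate 3 or 8:2 FTOH replicate 2 (-0.019 to 0.068), both near 0. The cause was not tested. Depth limits TFEB, MITF, GABARAP and CTSZ most.

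No pairing of the libraries by replicate number was detected. Over 63 same-numbered pairs the correlation of deviations from group means was -0.120 to 0.132, against -0.129 to 0.130 over 126 other pairs. These correlations cannot show whether same-numbered libraries were handled together. With the replicate block 0 members were called in every comparison and the PFOA median was -0.072.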

Other observations

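3 genes of the wider pathway passed only when 1 or more libraries or the filter were changed, and were chosen after their values were seen. BNIP3, a receptor for the removal of mitochondria, had 94.3 to 129.7 CPM over the 18 compound libraries, against 70.2, 86.97 and 118 CPM in control. For the 6 compounds together its log2 fold change was 0.29 ± 0.099 (SE), adjusted p = 0.286 by edgeR. Without control replicate 3, the library with the highest mitochondrial share (6.33%), it was 0.51 with an adjusted p of 0.000604. BNIP3 then passed with every compound but PFDA, at log2 fold changes of 0.46 to 0.58. Leaving out that library also raised the calls over all genes, from 87 of 24879 to 154 of 25631 for the 6 together. For PFOA they rose from 8 to 136, for PFOS from 6 to 24 and for PFDS from 6 to 23. For 8:2 FTS they rose from 21 to 41 and for 8:2 FTOH from 8 to 32. Without the filter on low counts BNIP3 passed for the 6 together (adjusted p = 0.00520), PFOS, 8:2 FTS and 8:2 FTOH. That fit called 286, 52, 126 and 107 of 45863 genes for these comparisons. DDIT4, an inhibitor of mTORC1 that responds to stress, had 48.4 to 72.6 CPM over the compound libraries, against 34.6, 50.4 and 63.8 CPM in control. Its fold change for the 6 together was 0.35 ± 0.13 (SE), adjusted p = 0.352 on the log2 scale. It was 0.57 with an adjusted p of 0.0231 without control replicate 3, and the adjusted p was 0.0339 without the filter. The calls over all genes in these fits are those given above for the 6 together. In both genes control replicate 3 was the highest control library and lay among the compound libraries.

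LAMTOR2, a subunit of the complex that anchors mTORC1 to the lysosome, had 23.1 to 35.7 CPM over the compound libraries, against 39.6, 39.4 and 33.6 CPM in control. Its log2 fold change for the 6 together was -0.29 ± 0.084 (SE), adjusted p = 0.141. The adjusted p was 0.0328 without PFDS replicate 3 and 0.0334 without the filter on low counts. Those fits called 217 of 25663 and 286 of 45863 genes in all, against 87 of 24879 in the main fit. The part of mitochondrial share or depth in these values was not tested.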
